A study of Mus musculus with 9 samples.

Results

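The genes described here encode glycolytic enzymes from hexokinase to lactate dehydrogenase: Hk2, Gpi1, Pfkl, Aldoa, Tpi1, Gapdh, Pgk1, Eno1, Pkm and Ldha. They were chosen by symbol, and the rule used no measured value, but earlier results of these data were known when it was made. They are 10 of the 14461 genes in the deposited table, all 10 were found there, and all 10 passed the filter on low values (a value of at least 1 in at least 3 libraries), as did 13771 genes in all. The phosphoglycerate mutase step has no member in this set, and its gene Pgam1 is given with the other isoenzymes. Each other step is held by 1 gene, which need not be its most abundant isoenzyme. Hk2 was a small part of hexokinase RNA in every library, as given below.

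RNA was sequenced from LSK cells, the immature blood-forming cells that lack lineage markers and carry Sca-1 and c-Kit, sorted from bone marrow of parabiotic mice. Parabiotic mice are joined by surgery and share a blood circulation. The 9 libraries fall into 3 groups of 3: circulating LSK labelled C57BL/6, irradiated LSK labelled C57BL/6, and endogenous LSK labelled B6SJL CD45.1. The study's design names LSK cells that travelled through blood into the marrow of an irradiated partner. All mice were specific pathogen free. Radiation dose, time after surgery and age were not given in the sources used here. Whether replicates are separate animals is not stated either, and p-values then measure only the spread between these libraries, which may be technical.

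Glycolysis converts glucose to pyruvate in the cytosol and yields ATP without oxygen, and lactate dehydrogenase then regenerates NAD+ by turning pyruvate into lactate. Resting blood stem cells in the low-oxygen marrow are known for their reliance on glycolysis, and the same enzymes also feed carbon into the pentose phosphate and serine routes in dividing cells. Many of these genes are known targets of hypoxia-inducible factor, which binds the core ACGTG, and of Myc, which binds the E-box CACGTG.

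Promoter windows of 5 members are shown because they differ in these motifs while every circulating library lay above every endogenous one for each of these genes. Of the 5, Ldha, Aldoa, Pkm and Gpi1 passed the test described below for this comparison, and Pgk1 did not. Each window runs from 250 bases before to 50 bases after a RefSeq transcript start (build GRCm38.p6) and is printed 5′ to 3′ on the gene's strand. Capitals mark ACGTG on either strand, which reads CACGT on the printed strand when it lies on the other one. A CACGTG E-box, which contains both, is capitalised whole.
Ldha (chr7:46845554-46845853, plus strand): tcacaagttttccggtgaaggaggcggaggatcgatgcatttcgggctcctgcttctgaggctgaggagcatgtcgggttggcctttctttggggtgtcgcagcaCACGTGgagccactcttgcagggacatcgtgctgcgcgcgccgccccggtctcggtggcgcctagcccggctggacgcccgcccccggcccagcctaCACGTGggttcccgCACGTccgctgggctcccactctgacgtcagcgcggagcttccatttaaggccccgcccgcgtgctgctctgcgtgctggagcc
Pgk1 (chrX:106186850-106187149, plus strand): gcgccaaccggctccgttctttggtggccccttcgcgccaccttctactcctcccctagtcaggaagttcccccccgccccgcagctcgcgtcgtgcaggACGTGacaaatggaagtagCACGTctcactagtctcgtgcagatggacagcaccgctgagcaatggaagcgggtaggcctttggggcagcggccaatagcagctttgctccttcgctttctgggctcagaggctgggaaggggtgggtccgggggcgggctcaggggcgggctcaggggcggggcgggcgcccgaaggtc
Aldoa (chr7:126799205-126799504, minus strand): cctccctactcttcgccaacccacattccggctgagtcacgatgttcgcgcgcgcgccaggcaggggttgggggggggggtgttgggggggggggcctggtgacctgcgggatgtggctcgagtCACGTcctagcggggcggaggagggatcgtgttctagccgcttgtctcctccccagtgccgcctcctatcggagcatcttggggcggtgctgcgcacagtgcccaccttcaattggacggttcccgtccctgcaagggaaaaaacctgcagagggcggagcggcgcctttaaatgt
Pkm (chr9:59656977-59657276, plus strand): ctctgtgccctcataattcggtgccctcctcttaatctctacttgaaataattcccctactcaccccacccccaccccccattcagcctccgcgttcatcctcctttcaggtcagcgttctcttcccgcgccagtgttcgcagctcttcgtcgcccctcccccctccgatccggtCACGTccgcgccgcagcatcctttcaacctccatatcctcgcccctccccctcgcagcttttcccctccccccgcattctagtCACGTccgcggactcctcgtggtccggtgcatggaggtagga
Gpi1 (chr7:34230287-34230586, minus strand): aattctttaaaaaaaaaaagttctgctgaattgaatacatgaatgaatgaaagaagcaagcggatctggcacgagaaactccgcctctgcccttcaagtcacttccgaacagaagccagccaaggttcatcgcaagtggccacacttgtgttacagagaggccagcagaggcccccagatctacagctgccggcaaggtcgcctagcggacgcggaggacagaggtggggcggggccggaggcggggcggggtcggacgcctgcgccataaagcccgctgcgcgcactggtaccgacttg
Ldha carried 3 marked stretches, at -145, -48 and -34 from the start site, of which 2 were E-boxes. Pgk1 had marked stretches at -150 and -131, and the shown Aldoa window had 1 at -126. The shown Pkm window had marked stretches at -75 and 8, and Gpi1 had no match. Gpi1 had the largest fold change of the members in circulating against endogenous cells, and Ldha had it in irradiated against endogenous cells. Over the 16 RefSeq windows of the 10 members, 7 windows in 6 genes (Hk2, Aldoa, Gapdh, Pgk1, Pkm and Ldha) held ACGTG on either strand. None was found in the windows of Gpi1, Pfkl, Tpi1 or Eno1. The 2 Aldoa windows among the 7 overlap and hold the same site. Ldha, Pkm and Aldoa each also had a window without a match, which is not shown. ACGTG stood in 19.6% of all 32851 windows and in 25.4% of the 12629 windows of tested genes. Of the 9915 tested genes with a window, 29.3% had it in at least 1 window. The E-box CACGTG was present in 1 of the 16 member windows, that of Ldha, and in 7.15% of all windows. These matches describe letters in a window and show no binding.

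Values are the deposited normalised values, estimated counts scaled to library size, on a linear scale. Recovered estimated counts totalled 14065855 to 27012345 per library, and no member fell below an estimated count of 257 in any library. The median gene varied more between circulating libraries (SD 0.38 on the log2 scale) than between irradiated (0.21) or endogenous libraries (0.26). Circulating replicate 1 stands apart: 12 skeletal muscle genes summed to 6149 in it, against 13.6 to 28.1 in each of the other 8 libraries. The LSK gate genes Ly6a, Kit, Cd34, Flt3 and Ptprc were present in every library and summed to 2641 ± 603 in circulating, 2891 ± 163 in irradiated and 3978 ± 200 in endogenous libraries (SD, n = 3 each). Ctse, a gene on chromosome 1 that lies 6.43 Mb from the CD45 gene Ptprc and was picked after its values were seen, averaged 623 ± 105 in circulating, 61.5 ± 15.2 in irradiated and 759 ± 63.3 in endogenous libraries. The circulating libraries thus stood near the endogenous ones for this gene, although they carry the strain label of the irradiated ones. The reason was not tested, and groups are named here by their labels.

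With the values scaled as deposited, circulating cells had more RNA of most of these glycolytic enzymes than endogenous cells. Circulating and irradiated cells both differ from endogenous cells in strain label as well. Strain and group cannot be told apart by label in those comparisons, and the part of strain was not tested. Of the 10 genes, 7 rose (Gpi1, Aldoa, Tpi1, Gapdh, Eno1, Pkm and Ldha) and none fell at an adjusted p under 0.05 in limma, where 5.33% of all tested genes rose and 3.3% fell. The rises ran from 0.41 log2 for Tpi1 to 1.05 log2 for Gpi1, which is 1.32 to 2.14 times the endogenous mean. The libraries of these groups did not overlap for 9 of the 10 genes, against 27.5% of all tested genes. The members' median difference was 0.56 log2, against -0.04 for all tested genes.

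In irradiated against endogenous cells 2 of the 10 genes rose, Gapdh and Ldha, and none fell, where 0.472% of all tested genes rose and 0.131% fell. Neither call held when any 1 irradiated or endogenous library was left out. In those fits 6 to 32 of all 13771 tested genes were called in this comparison, against 83 in the main fit. Gapdh then stood at 0.54 to 0.63 log2 and Ldha at 0.66 to 0.74 log2. The groups did not overlap for 9 of 10 genes, Pfkl being the exception, against 27.7% of all tested genes, and the median difference was 0.39 log2 against -0.01 for all genes. Between circulating and irradiated cells no member passed (0 of 10 in limma-trend and 0 of 10 in limma-voom), where 0.029% of all tested genes were called in either direction. At an unadjusted p under 0.05 in limma-trend were 2 of 10, Gpi1 and Pfkl, beside 1573 of all 13771 tested genes. Here the groups did not overlap for 2 of 10 genes, Pfkl and Pkm, against 16.7% of all tested genes, and the median difference was 0.02 log2. The 3 comparisons share groups, so the values of a gene in them are not independent.

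**Figure D1:**
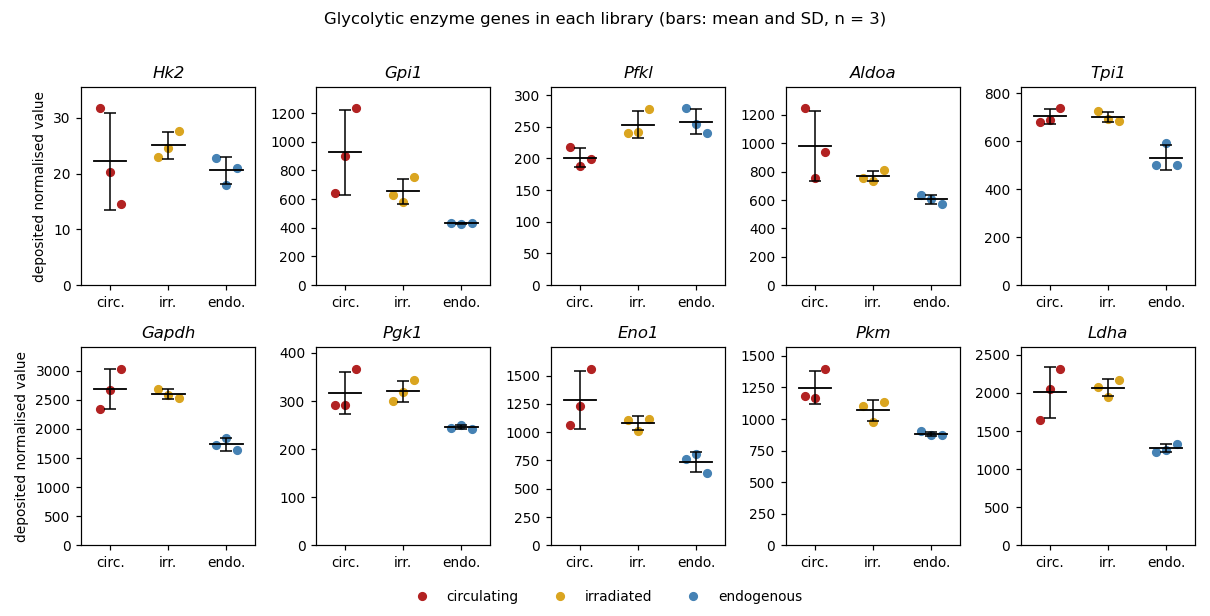
Deposited normalised value (y axis, from 0) of each of the 10 genes in each library of the circulating, irradiated and endogenous groups. Points are libraries and bars are the mean and SD of 3 libraries. For 7 genes from Aldoa to Ldha and for Gpi1 every endogenous library lies below every library of both other groups, whereas Hk2 and Pfkl lack this order.

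At the first step, hexokinase traps glucose in the cell as glucose 6-phosphate. Hk2 (ENSMUSG00000000628, chr6:82725025-82774454), an inducible hexokinase bound to mitochondria, had values of 31.7, 20.3 and 14.6 in circulating replicates 1 to 3, of 22.9, 24.5 and 27.7 in irradiated replicates and of 22.8, 17.9 and 20.9 in endogenous replicates. Circulating libraries held both its highest and its lowest value and overlapped both other groups, and irradiated libraries lay just above endogenous ones. The highest value was that of circulating replicate 1, the library with muscle RNA, and the part of muscle RNA in it was not tested. The difference between circulating and endogenous cells was 0.04 log2 (95% interval -0.58 to 0.67, adjusted p = 0.94). Between irradiated and endogenous cells it was 0.28 log2 (adjusted p = 0.718). Without circulating replicate 1, circulating cells stood at -0.24 log2 against endogenous cells (adjusted p = 0.565 in limma). Against irradiated cells they then stood at -0.51 log2 (adjusted p = 0.34 in limma).

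Gpi1 (ENSMUSG00000036427, chr7:34201330-34230336) encodes the isomerase that turns glucose 6-phosphate into fructose 6-phosphate. It measured 642, 903 and 1234 in circulating, 631, 582 and 752 in irradiated and 436, 429 and 434 in endogenous libraries. The coefficient of variation was 32.0% among circulating and 0.832% among endogenous libraries, and the groups did not overlap. Circulating cells exceeded endogenous cells by 1.05 log2 (SE 0.19, adjusted p = 0.0128). Every irradiated library was above every endogenous one, but the difference of 0.59 log2 did not pass (SE 0.19, adjusted p = 0.18), nor did that of 0.46 log2 between circulating and irradiated cells (adjusted p = 0.408).

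Pfkl (ENSMUSG00000020277, chr10:77986947-78010083), the liver-type phosphofructokinase that commits sugar to glycolysis, ran the other way. Its values were 217, 188 and 199 in circulating, 240, 241 and 278 in irradiated and 279, 255 and 240 in endogenous libraries. Each circulating library was lower than every library of both other groups. The difference was -0.36 log2 against endogenous cells (SE 0.12, adjusted p = 0.0889) and -0.33 log2 against irradiated cells (adjusted p = 0.356), and neither passed. Without circulating replicate 1, with library-size scaling alone or with quantile normalisation, Pfkl did pass against endogenous cells (log2 difference -0.41, -0.56 and -0.58, adjusted p = 0.0497, 0.0255 and 0.0219).

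Aldolase A splits fructose 1,6-bisphosphate into 2 triose phosphates and is also the abundant aldolase of muscle. Aldoa (ENSMUSG00000030695, chr7:126795234-126800751) measured 1247, 755 and 939 in circulating, 758, 738 and 809 in irradiated and 637, 609 and 571 in endogenous libraries. The highest value came from circulating replicate 1, the library with muscle RNA, in which the muscle-enriched glycolytic genes Eno3 (130.9) and Pgam2 (101.8) were also at their highest (at most 12.9 and 6.20 in the other 8 libraries). Circulating cells exceeded endogenous cells by 0.66 log2 (SE 0.15, adjusted p = 0.0282). Without that library the difference was 0.48 log2 and still passed (SE 0.11, adjusted p = 0.0214), and the groups did not overlap with it or without it.

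**Figure D2:**
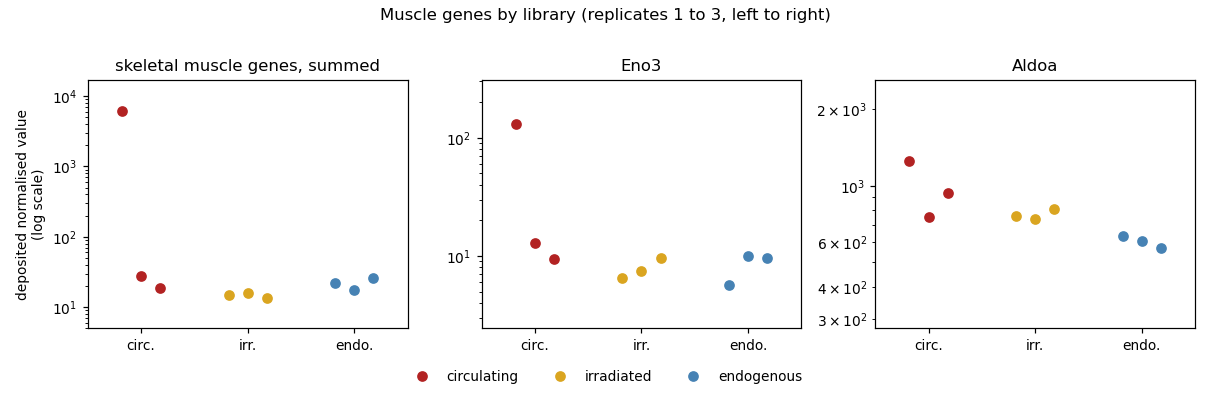
Summed value of 12 skeletal muscle genes, value of Eno3 and value of Aldoa (y axes, log scale) in each library of the 3 groups. Circulating replicate 1 lies at 6149 for the muscle sum and at 130.9 for Eno3, far above the other 8 libraries, and at 1247 it is the highest library for Aldoa.

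Tpi1 (ENSMUSG00000023456, chr6:124810586-124814296) encodes the isomerase that interconverts the triose phosphates. It was the steadiest member outside endogenous cells, at 682, 690 and 737 in circulating and 726, 693 and 684 in irradiated libraries, against 500.3, 592 and 500.3 in endogenous libraries. Irradiated libraries lay within the circulating range, and both groups lay above all endogenous libraries. The circulating excess over endogenous cells was 0.41 log2 (SE 0.10, adjusted p = 0.034), and the irradiated excess of 0.41 log2 did not pass (adjusted p = 0.101).

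Gapdh (ENSMUSG00000057666, chr6:125161715-125166467), the dehydrogenase that reduces NAD+ and a gene often used to normalise expression, measured 2351, 2663 and 3038 in circulating, 2689, 2579 and 2529 in irradiated and 1724, 1850 and 1637 in endogenous libraries. No endogenous library reached the lowest library of either other group. It rose by 0.62 log2 in circulating cells (SE 0.10, adjusted p = 0.00828) and by 0.58 log2 in irradiated cells (SE 0.10, adjusted p = 0.0263), each against endogenous cells. The difference between circulating and irradiated cells was 0.04 log2, with a 95% interval of -0.18 to 0.26.

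Pgk1 (ENSMUSG00000062070, chrX:106187100-106203699) encodes the kinase of the first ATP-forming step. It measured 292, 292 and 368 in circulating, 299.5, 318 and 343 in irradiated and 244, 250.4 and 242 in endogenous libraries. Again no endogenous library reached the other groups, but neither difference passed, at 0.36 log2 for circulating cells (SE 0.12, adjusted p = 0.0901) and 0.38 log2 for irradiated cells (adjusted p = 0.172). Part of its RNA cannot be assigned with certainty: the processed pseudogene Pgk1-rs7 shares 1255 bases at 100% identity with Pgk1, and averaged 114 ± 23.3 in circulating, 97.6 ± 15.6 in irradiated and 61.6 ± 11.4 in endogenous libraries, 31.0% of the mean of Pgk1 over all libraries. Pgk1-rs7 was itself higher in circulating than in endogenous cells (0.88 log2, adjusted p = 0.028). For Gapdh and Eno1 the deposited near-identical copies, Gm3839 and Eno1b, stood at 0.919% and 1.02% of the member's mean.

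Enolase makes phosphoenolpyruvate. Eno1 (ENSMUSG00000063524, chr4:150236721-150248879) measured 1060, 1231 and 1562 in circulating, 1109, 1009 and 1119 in irradiated and 759, 805 and 635 in endogenous libraries. All libraries of the circulating and irradiated groups were above all endogenous ones. The excess was 0.80 log2 in circulating cells (SE 0.14, adjusted p = 0.0112), and 0.56 log2 in irradiated cells, which did not pass (SE 0.14, adjusted p = 0.106).

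Pkm (ENSMUSG00000032294, chr9:59656368-59679375) encodes the pyruvate kinase of most tissues outside liver and red cells, in 2 spliced forms that a gene-level table does not separate. It measured 1184, 1163 and 1400 in circulating, 1101, 977 and 1133 in irradiated and 904, 872 and 873.5 in endogenous libraries. The groups stood in 3 separate bands, circulating highest. Only the circulating excess over endogenous cells passed (0.49 log2, SE 0.10, adjusted p = 0.0191), and those of irradiated over endogenous cells (0.27 log2, adjusted p = 0.235) and of circulating over irradiated cells (0.22 log2, adjusted p = 0.439) did not.

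Ldha (ENSMUSG00000063229, chr7:46841475-46855627), the lactate dehydrogenase subunit that favours lactate formation, measured 1649, 2053 and 2320 in circulating, 2080, 1947 and 2171 in irradiated and 1231, 1255 and 1330 in endogenous libraries. Circulating libraries spanned the irradiated range, and both groups were above all endogenous libraries. Ldha rose by 0.64 log2 in circulating cells (SE 0.12, adjusted p = 0.0119) and by 0.70 log2 in irradiated cells (SE 0.12, adjusted p = 0.0245) against endogenous cells. The difference between circulating and irradiated cells was -0.05 log2 (95% interval -0.31 to 0.20).

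**Figure D3:**
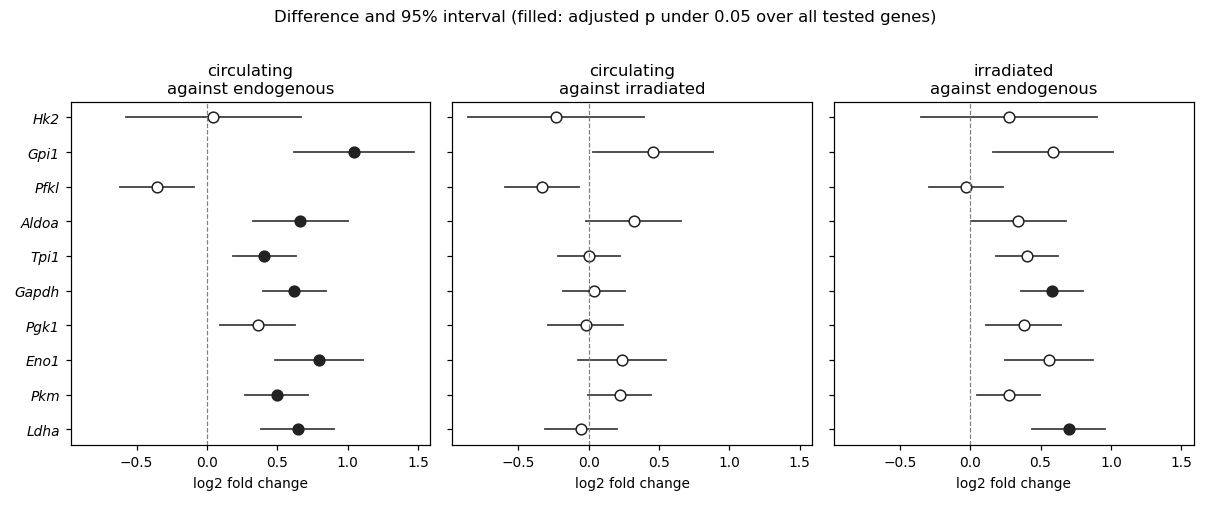
Log2 fold change (x axis) with its 95% interval for each gene (rows) in the comparisons of circulating with endogenous, circulating with irradiated and irradiated with endogenous cells. Filled points passed at an adjusted p under 0.05 over all tested genes: 7 genes in the left panel, 0 in the middle panel and 2 in the right panel.

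The number of members called depended on the scaling and on which libraries were in the fit. With quantile normalisation 2 of the 10 (Gpi1 and Eno1) rose and Pfkl fell in circulating against endogenous cells, with a median of 0.20 log2, and with library-size scaling alone 4 rose (Gpi1, Gapdh, Eno1 and Ldha) and Pfkl fell. Library-size scaling alone moved the median of all tested genes by -0.18 log2 in this comparison and turned the split over all tested genes to 339 higher and 817 lower, against 734 higher and 455 lower as reported here. With quantile normalisation that split was 432 higher and 409 lower. Without endogenous replicate 1, 2 or 3, the members that rose numbered 2, 4 and 4. Without circulating replicate 1 they numbered 7, with Pfkl falling. Over all tested genes these 4 fits called 257, 302, 486 and 2224, against 1189 in the main fit. Without endogenous replicate 1, 2 or 3 the difference was 1.05, 1.04 and 1.05 log2 for Gpi1. For Eno1 it was 0.83, 0.87 and 0.70 log2, against 0.80 in the main fit.

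The summed value of the 10 genes was 9356, 9958 and 11811 in circulating, 9655, 9108 and 9847 in irradiated and 6738, 6935 and 6483 in endogenous libraries. As a share of all deposited signal this was 0.971 ± 0.0615% in circulating, 0.939 ± 0.0250% in irradiated and 0.726 ± 0.0150% in endogenous libraries (SD, n = 3 each). The circulating sum was 1.54 times and the irradiated sum 1.42 times the endogenous sum. These are bulk libraries, so more cells rich in these transcripts and more transcript per cell cannot be told apart.

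Per kilobase of transcript, Gapdh had the highest level and Ldha the next in every group, at 1890 ± 242 and 1137 ± 191 in circulating, 1830 ± 57.6 and 1170 ± 64.0 in irradiated and 1223 ± 75.5 and 720 ± 29.2 in endogenous cells (SD, n = 3 each). Aldoa, Eno1, Pkm and Tpi1 followed within a narrow band of 330 to 391 in endogenous cells, where Aldoa (391 ± 21.3), Pkm (363 ± 7.44) and Eno1 (362 ± 43.6) did not differ beyond their spread. In circulating cells Eno1 (634 ± 126), Aldoa (633 ± 161) and Pkm (513.5 ± 53.9) likewise did not differ beyond their spread, and Tpi1 had a lower mean (437 ± 18.7). The Aldoa mean there includes circulating replicate 1, the library with muscle RNA. In irradiated cells Pkm (440 ± 33.9) and Tpi1 (436 ± 13.6) stood level, with higher means for Eno1 (532 ± 30.0) and Aldoa (496 ± 23.8). Gpi1 (321 ± 103 in circulating, 227 ± 30.3 in irradiated, 150 ± 1.25 in endogenous cells) and Pgk1 (174 ± 24.0, 175.5 ± 12.0 and 134.5 ± 2.35 in the same groups) came next. Pfkl was lower at 54.0 ± 3.96, 67.9 ± 5.78 and 69.2 ± 5.28, and Hk2 was lowest at 4.02 ± 1.58, 4.54 ± 0.443 and 3.73 ± 0.449.

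Several steps have more than 1 isoenzyme, and the share of each is given as a description, with no test. Ldha gave 97.8, 97.5 and 97.9% of lactate dehydrogenase RNA per kilobase in circulating, 96.8, 96.6 and 98.0% in irradiated and 88.7, 88.0 and 94.2% in endogenous libraries, with Ldhb, the subunit that favours pyruvate formation, as the rest. Ldhb measured 34.6 ± 6.29 in circulating, 44.5 ± 10.6 in irradiated and 100.7 ± 35.7 in endogenous libraries, and fell in circulating against endogenous cells (-1.46 log2, adjusted p = 0.017). The endogenous libraries all lay below the other 6 in Ldha share, and replicate 3 was nearest to them.

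Hk2 was a small part of hexokinase RNA per kilobase: 3.87 ± 2.75% for circulating, 4.74 ± 0.841% for irradiated and 5.63 ± 0.430% for endogenous libraries. In circulating replicates 1 to 3 it was 6.95, 2.98 and 1.68%, the first being the library with muscle RNA. Hk3, a hexokinase of myeloid cells, made up 61.6 ± 10.7%, 56.5 ± 5.32% and 40.7 ± 2.41% in the same groups, and it rose in circulating against endogenous cells (1.40 log2, adjusted p = 0.0254). Hk1, the widely expressed hexokinase, held most of the rest at 34.5 ± 8.57%, 38.7 ± 4.5% and 53.7 ± 2.79%. Pfkl supplied 48.9 ± 6.01% of phosphofructokinase RNA in circulating, 61.4 ± 2.75% in irradiated and 64.3 ± 2.60% in endogenous libraries, and Pfkp, the platelet-type form, rose in circulating against endogenous cells (0.94 log2, adjusted p = 0.0299). Aldoa held 99.4 ± 0.556%, 99.5 ± 0.249% and 98.0 ± 0.540% of the aldolase step in circulating, irradiated and endogenous cells. Eno1 held 99.0 ± 0.233% of enolase RNA in irradiated and 98.3 ± 0.510% in endogenous cells, and in circulating libraries 86.2, 98.6 and 99.2%, the low value being that of the library with muscle RNA.

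**Figure D4:**
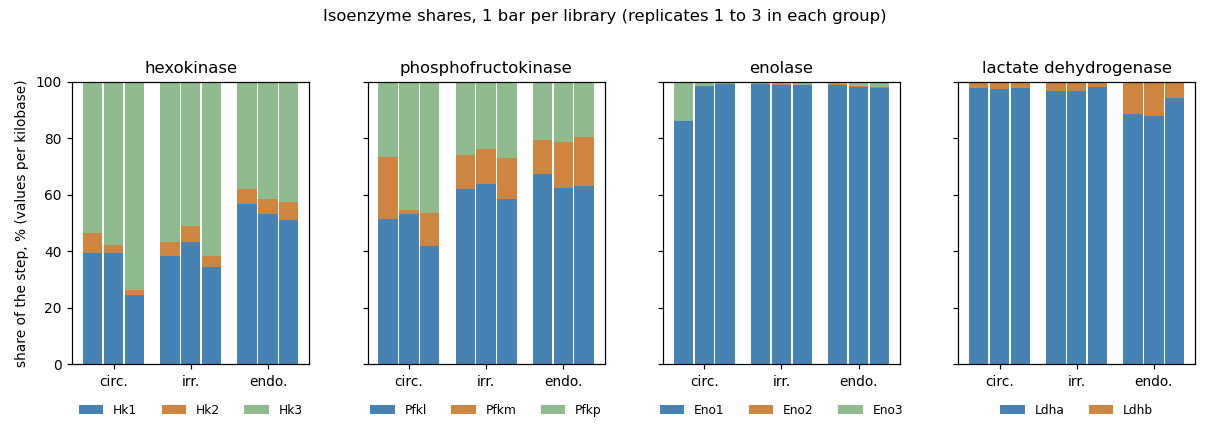
Share of each isoenzyme in the RNA of 4 steps (y axis, percent, from values per kilobase), 1 stacked bar per library, with circulating, irradiated and endogenous groups from left to right. Ldhb takes 5.75 to 12.0% of the lactate dehydrogenase step in endogenous libraries and at most 3.43% in the other 6, and Eno3 takes 13.8% of enolase in circulating replicate 1.

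The other genes of the pathway were read from lists, whose counts in circulating against endogenous cells stand beside 5.33% of all tested genes that rose and 3.3% that fell. Among the other glycolytic isoenzymes 3 of 11 tested genes rose in circulating against endogenous cells and 1 fell: Hk3, Pfkp, Pgam1 and Ldhb. Pgam1, the phosphoglycerate mutase between Pgk1 and Eno1, measured 758 ± 215 in circulating, 598 ± 65.9 in irradiated and 351 ± 20.3 in endogenous libraries, with a rise of 1.07 log2 in circulating against endogenous cells (adjusted p = 0.00893). Of 8 glucose and lactate transporter genes, 1 rose, too few to set the list apart from that background: Bsg, the chaperone of the lactate carriers (0.48 log2, adjusted p = 0.0422). The glucose carrier gene Slc2a1 measured 42.4 ± 2.47, 38.5 ± 4.0 and 36.6 ± 3.20 in circulating, irradiated and endogenous cells (0.21 log2, adjusted p = 0.485 for circulating against endogenous). Slc2a3, another glucose carrier gene, leaned the other way at 27.3 ± 12.6, 37.4 ± 8.60 and 51.6 ± 17.6 (-0.96 log2, adjusted p = 0.124 in limma). The lactate carrier gene Slc16a1 leaned up (1.17 log2, adjusted p = 0.0692 in limma), and neither passed.

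None of 19 regulators of glycolytic flux rose in circulating against endogenous cells and 3 fell in limma. Of the 19, 8 had an unadjusted p under 0.05 in either direction, beside 3672 of all 13771 tested genes. Txnip, which restrains glucose uptake, averaged 244 ± 38.2 in circulating and 684 ± 193 in endogenous cells, a fall of 1.46 log2 (log2 difference -1.46, adjusted p = 0.00935). Max, the partner of Myc in binding the E-box, had a log2 difference of -2.08 (adjusted p = 0.0103), and Mycn, a Myc family gene, one of -1.18 (adjusted p = 0.0431). Myc itself averaged 403 ± 55.9 in circulating and 403 ± 35.9 in endogenous cells, and Hif1a, the oxygen-regulated factor, 104 ± 25.3 and 98.6 ± 7.21.

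Lists of the routes that leave or follow glycolysis are given for the same comparison and against the same background, and a list with a single call is not set apart from it. In the pentose phosphate pathway 3 of 8 rose: G6pdx (0.93 log2, adjusted p = 0.0143), which opens the pathway, and Taldo1 (0.76 log2, adjusted p = 0.0211) and Tkt (0.50 log2, adjusted p = 0.0425), which return its sugars to glycolysis. Of 10 genes for pyruvate entry into mitochondria, 1 rose, the carrier subunit Mpc1 (0.80 log2, adjusted p = 0.0079), and of 16 tricarboxylic acid cycle genes 4 rose: Sucla2, Mdh2, Fh1 and Cs (0.57 to 0.67 log2, highest adjusted p = 0.0485). Of 3 gluconeogenic genes 1 rose, G6pc3, a glucose-6-phosphatase (0.76 log2, adjusted p = 0.0152). Of 14 hypoxia response genes outside glycolysis 1 rose, Ero1l (1.28 log2, adjusted p = 0.0174), and 1 fell, Ndrg1 (-0.93 log2, adjusted p = 0.0305), both counts close to the background. Among genes often used as references, Hprt and Ppia rose (0.48 and 0.42 log2), and Ppia lost both its direction and its call with quantile normalisation (-0.04 log2).

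**Figure D5:**
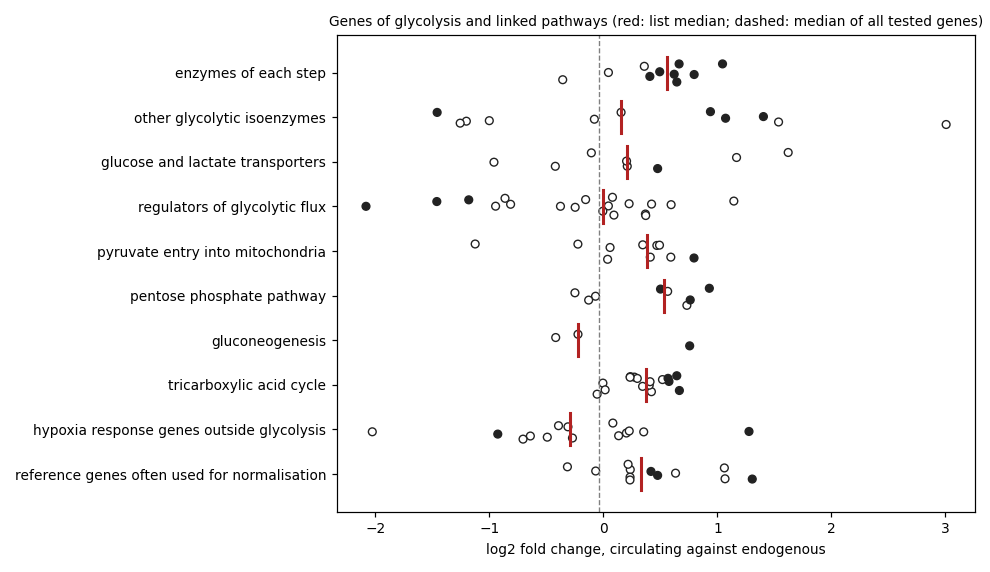
Log2 fold change of circulating against endogenous cells (x axis) for each tested gene of the enzyme set and of 9 linked lists (rows). Filled points passed at an adjusted p under 0.05, red bars are list medians and the dashed line is the median of all tested genes (-0.04), beside a median of 0.56 for the 10 enzymes and of -0.29 for hypoxia response genes outside glycolysis.

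The list medians in circulating against endogenous cells were 0.16 log2 for other isoenzymes, 0.21 for transporters, -0.00 for regulators, 0.38 for pyruvate entry and 0.53 for the pentose phosphate pathway. They were -0.22 for gluconeogenesis, 0.37 for the tricarboxylic acid cycle, -0.29 for hypoxia response genes and 0.33 for reference genes, beside -0.04 for all tested genes. In irradiated against endogenous cells 1 of the 100 tested genes in these 9 lists rose, G6pc3 (0.88 log2, adjusted p = 0.0245), beside 0.472% of all tested genes. Of the 100, 34 had an unadjusted p under 0.05, beside 2053 of all 13771 tested genes. In circulating against irradiated cells limma called 0 of the 100, with a lowest adjusted p of 0.293. Here 10 of the 100 had an unadjusted p under 0.05, close to the background of 1573 of all 13771 tested genes.

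Some markers of other cell states also differed between the groups. The 10 cycling genes summed to 3409 ± 724 in circulating, 3083 ± 311 in irradiated and 1746 ± 74.5 in endogenous libraries (SD, n = 3 each), with 9 of 10 rising in circulating and 5 of 10 in irradiated cells against endogenous cells. The 10 granulocyte-monocyte progenitor genes, Mpo and Elane among them, summed to 26472 ± 13701, 12545 ± 4444 and 2645 ± 540 in the same groups, with 7 and 5 of 10 rising. Of 9 tested stem cell genes 5 fell in circulating and 1 in irradiated cells, and their sum was 450.4 ± 80.3, 661 ± 8.18 and 1090.1 ± 117. Among the other lists, 2 of 10 erythroid, 3 of 9 B cell and 1 of 7 T and NK cell genes rose in circulating against endogenous cells, and 2 of 10 mature neutrophil genes and 1 of 5 LSK gate genes (Kit) fell, beside 5.33% and 3.3% of all tested genes. In irradiated against endogenous cells 1 of 7 T and NK cell genes rose and none of the other 4 lists had a call, beside 0.472% of all tested genes that rose and 0.131% that fell. No measured gene of the cycling, progenitor and stem cell lists was at a count of 0 in all libraries of a group, and the part of all these markers in the enzymes' differences was not tested. Circulating replicate 3 had the highest value of 7 of the 10 enzymes and also the highest progenitor sum, 40656. Among irradiated libraries replicate 3 was highest in both the enzyme sum (9847) and the progenitor sum (16816). Among endogenous libraries replicate 2 had the highest enzyme sum (6935) and the lowest progenitor sum (2258). A link between these sums was not tested.

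The genes most like the enzymes were ranked by the root mean square difference of their centred log2 profile from the members' mean profile over the 9 libraries, among 6218 genes. The 5 nearest were Ube2k (0.0461 log2), Cct2 (0.0584), Phf5a (0.0587), Snrnp25 (0.0631) and Ndufab1 (0.0631). Ube2k, a ubiquitin-conjugating enzyme, averaged 128.0 ± 4.84 in circulating, 119.7 ± 7.44 in irradiated and 91.8 ± 5.26 in endogenous libraries. Among the members, Pgk1 (0.0768) and Pkm (0.0807) lay closest to the mean profile and Hk2 (0.350) and Pfkl (0.347) farthest, with Gpi1 next (0.312). Within groups the members' median SD was 0.22 log2 in circulating, 0.09 in irradiated and 0.08 in endogenous libraries, against 0.28, 0.15 and 0.20 for the 7255 tested genes at least as abundant as the lowest member.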

How the data were processed

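RNA-seq was made from sorted LSK cells with the SMART-Seq v4 and Nextera XT kits, per the labels' protocols, a chemistry that does not mark strand. CASAVA, RSEM 1.3.1, limma and the build mm10 are named, without roles, in the submitters' processing notes. Annotation release, scaling method and filter were not given in the sources used here. Values as deposited by the authors are a normalised signal, not counts: each is an estimated count plus 0.5, divided by a scaled library size. Estimated counts were recovered from this form for depth and for limma-voom.

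The fit was limma-trend (limma 3.58.1, R 4.3.3) with robust moderation on log2(value + 1), all 9 libraries and no covariates, with Benjamini-Hochberg adjusted p-values over 13771 genes, called under 0.05. Fold changes on this scale understate those of low genes. Symbols, positions and transcript lengths came from GENCODE for GRCm38, the assembly that mm10 names, and 14405 of 14461 IDs matched a symbol. Near-identical copies were found with BLAST 2.17.0 (at least 95% identity over 300 bases). Promoter sequences and coordinates came from RefSeq, and all 10 members matched.

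All 10 members were named. From each linked list every called gene was named, up to 6 per comparison, except 1 that is not reported here. The members, lists and rules were chosen with earlier results of these data known. The skeletal muscle list was chosen after the values were seen.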

Additional observations from a re-analysis of the deposited data

How the results depend on the processing

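For circulating against endogenous cells, 7 of 10 enzyme genes were called, 3 with quantile normalisation and 3 with only the 2 groups in the fit. Leaving out 1 library gave 2 to 8 calls (2 without endogenous replicate 1, 4 without endogenous replicate 2 or 3, 8 with Pfkl lower without circulating replicate 1). For irradiated against endogenous cells 2 were called, 1 with quantile normalisation or without robust moderation, 6 with sample weights and 6 with only the 2 groups, and 0 to 3 when 1 library was left out (0 without any irradiated or endogenous replicate). For circulating against irradiated cells 0 were called under all 21 alternatives. Calls over all 13771 tested genes moved too. In circulating against endogenous cells they numbered 1189 in the main fit, 841 with quantile normalisation and 239 with only the 2 groups. Without endogenous replicate 1, 2 or 3 they numbered 257, 302 and 486, and without circulating replicate 1, 2224. In irradiated against endogenous cells they numbered 83, 897 with sample weights and 757 with only the 2 groups. Without 1 irradiated or endogenous replicate they numbered 6 to 32. The cause of these shifts was not tested. With the replicate number as a replicate block in the 2-group fits, 0 and 4 were called against endogenous cells in circulating and irradiated cells. With it in the fit of all libraries they numbered 7 and 2. Over all tested genes the calls numbered 65 and 496 in the 2-group fits and 1147 and 105 in the fit of all libraries. Titles give same-numbered circulating and irradiated libraries a common code and endogenous libraries codes of their own, with no meaning stated. Deviations of same-numbered circulating and irradiated libraries correlated at 0.0501, 0.0311 and 0.182, and of all pairs of groups at -0.0226 to 0.182, so whether the numbers pair the libraries cannot be told. With library-size scaling alone the summed level was 1.34 times (circulating) and 1.29 times (irradiated) the endogenous sum.

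Differences that did not pass, and the called gene Ppia, changed sign as follows. In circulating against endogenous cells Hk2 was at -0.149 log2 with library-size scaling and -0.237 to 0.298 with 1 library left out, and Ppia was at -0.0379 with quantile normalisation. In circulating against irradiated cells library-size scaling and quantile normalisation put Tpi1 at -0.0656 and -0.0589 and Gapdh at -0.0296 and -0.122. With 1 library left out, the ranges were -0.512 to 0.0223 for Hk2, -0.0317 to 0.0282 for Tpi1, -0.0542 to 0.131 for Gapdh, -0.131 to 0.0351 for Pgk1 and -0.166 to 0.0804 for Ldha, and -0.0971 to 0.0299 for Pfkl in irradiated against endogenous cells. The 7 members called in circulating against endogenous cells kept their direction under all 21 alternatives. Of the 22 linked genes called there, 21 missed the threshold in at least 1 alternative. Where leaving out a library leaves a group of 2, the fit assumes the shared spread. The lowest estimated count of a member in any library was 257, and the part of depth was not tested.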
